A study of Arabidopsis thaliana with 4 samples.

Results

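Condensins are ring-shaped protein machines that fold chromatin loops and compact chromosomes for mitosis. Each holds a pair of SMC ATPases, SMC2 and SMC4, a kleisin subunit that closes the ring and HEAT-repeat subunits that touch DNA and regulate the complex. Condensin I carries CAP-H, CAP-D2 and CAP-G, and condensin II carries CAP-H2, CAP-D3 and CAP-G2. Cohesin, built on SMC1 and SMC3, instead holds sister chromatids together. In growing plant organs condensins are needed in dividing cells, and condensin II is also known for its part in the arrangement of the interphase nucleus.

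The condensin and SMC genes described here are 10 Arabidopsis thaliana loci, chosen by their locus identifiers as the genes of SMC2 and a second SMC2 copy, SMC4, the CAP subunits of both condensins and SMC1 of cohesin. A probe set that the platform annotation gives to that gene alone was found for 3 of the 10, among 13286 loci so matched in all. These are AT3G47460, listed as ATSMC2, the second copy of the SMC2 gene; AT3G57060, the gene of CAP-D2; and AT4G15890, the gene of CAP-D3. Each had 1 probe set. The annotation names the CAP-D genes by locus only, and their subunit names are general knowledge of Arabidopsis condensins. The other 7 loci were not analysed here: the other SMC2 gene AT5G62410, AT5G48600 (SMC4, listed under the symbol SMC3), AT2G32590 (CAP-H), AT5G37630 (CAP-G), AT3G16730 (CAP-H2), AT1G64960 (CAP-G2) and AT3G54670 (SMC1). No kleisin gene and no cohesin SMC gene of the set was therefore seen, and each condensin was seen through 1 subunit of its own, its CAP-D subunit.

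All samples were wild-type Col-0, the usual laboratory accession, grown in soil mix under continuous light, with no transgene or drug named. Axillary buds were taken before decapitation, the removal of the main shoot apex, and axillary shoots 24 h after it. Each group had 2 arrays, called bud arrays 1 and 2 and shoot arrays 1 and 2. The labels give neither the number of plants behind an array nor whether replicate arrays had separate plants, so p-values measure the spread between these arrays, which may be technical. Intact plants were not sampled at the later time, so decapitation, wounding, age and tissue make-up cannot be told apart, and higher or lower names the groups only.

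Signals are MAS5 intensities, scaled so that the trimmed mean of each array was 100, and precision is limited by the number of arrays. The median signal lay between 40.6 and 46.3 on the 4 arrays. The comparison covered 13648 probe sets whose geometric mean signal was 23.1 or more. Of these, 1388 were higher in shoots and 1635 lower at an adjusted p of 0.05 (limma, Benjamini-Hochberg adjustment), or 10.2% and 12% of those tested. The balance of calls depended on scaling, with 1958 higher and 1247 lower when array medians were set equal, and 1576 and 1446 with quantile normalization. A sign of RNA quality, the 3′ actin control signal divided by the 5′ one, was 1.66 and 1.38 in buds against 0.990 and 1.14 in shoots, and an older actin control gave 5.81 and 6.67 against 2.13 and 3.19. These actin ratios were higher in buds, where the condensin signals were lower, and their part in those signals was not tested. The same ratio for ubiquitin overlapped between the groups, at 0.704 and 0.963 against 0.718 and 0.887, and so did that for GAPDH. The older controls for these genes did not overlap and were also higher in buds. For ubiquitin the older control gave 1.044 and 1.024 against 0.966 and 0.973, and for GAPDH 1.513 and 0.812 against 0.714 and 0.601. The part of these ratios in the condensin signals was not tested either. Markers of the labelled tissue were hardly covered: 2 of 10 shoot meristem markers had a probe set, CLV3 with signals from 1.06 to 7.32 and LAS with signals from 15.4 to 19.6, and their sum ranged from 16.4 to 23.98 in buds and from 17.3 to 23.98 in shoots. The markers of root, mesophyll, epidermis and vascular tissue had 0 named probe sets, so the tissue label could not be checked further.

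The 3 measured condensin genes were all higher in the shoots, each with both shoot arrays above both bud arrays. CAP-D3, of condensin II, was 2.71-fold higher and passed the test, as 1 of the 2 condensin genes tested, where 10.2% of all tested probe sets passed as higher. Both of its bud signals lay below 23.1, so it entered that test through its shoot signals. With no filter 1 of the 3 condensin genes passed, again CAP-D3, where 4.45% of all probe sets passed as higher. ATSMC2, an SMC core subunit common to both condensins, was 1.71-fold higher and missed the threshold. CAP-D2, of condensin I, was 2.68-fold higher in signals too dim for the filtered test. Both shoot arrays lay above both bud arrays for 23.2% of all 22746 probe sets that were not controls. In RNA from whole buds and shoots, more cells with these transcripts and more transcript in each cell cannot be told apart.

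**Figure D1:**
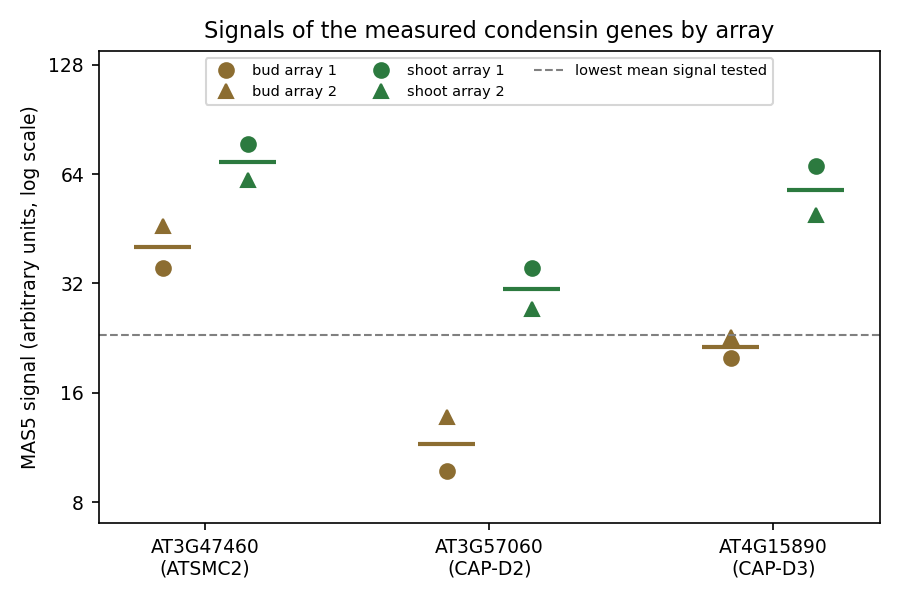
MAS5 signal (arbitrary units, log scale) of the 3 measured condensin genes on each array. Points are arrays, bars are geometric means of the 2 arrays of a group, and the dashed line is the lowest geometric mean tested, 23.1; for every gene both shoot arrays stand above both bud arrays, and the bud signals of CAP-D2 and CAP-D3 lie below the line.

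The SMC ATPases form the arms of the ring, and ATSMC2 (AT3G47460) was the only SMC gene of the set with values. Bud arrays 1 and 2 gave signals of 35.4 and 46.2, and shoot arrays 1 and 2 gave 77.6 and 61.5. It stood close to the middle of the arrays, above 45.5% and 51.0% of probe sets in buds and above 63.2% and 58.6% in shoots. The lower shoot array was 1.33 times the higher bud array, which in turn was 1.31 times the other bud array. The group means were 40.8 ± 7.64 in buds and 69.6 ± 11.4 in shoots (SD, n = 2 in each). The log2 fold change was 0.77 with a standard error of 0.26 and a 95% confidence interval from 0.17 to 1.38, and the limma adjusted p was 0.0687. The gap between the groups was thus larger than the gap within either group, but it did not pass over all probe sets. It did pass when array medians were set equal (adjusted p = 0.0361) or with quantile normalization (0.0418), and it stayed above the threshold whichever array was left out (0.0538 to 0.336).

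The CAP-D subunits are long HEAT-repeat proteins, and each of the 2 condensins has its own. The gene of the condensin II subunit CAP-D3 (AT4G15890) gave signals of 20.0 and 22.8 in buds (arrays 1 and 2) against 67.6 and 49.5 in shoots. The bud arrays lay close together, and the lower shoot array was 2.17 times the higher bud array. Means were 21.4 ± 2.00 in buds and 58.6 ± 12.8 in shoots (SD, n = 2 in each). In buds the gene stood above 36.9% and 39.4% of probe sets, and in shoots above 59.99% and 54.1%. CAP-D3 rose by a log2 fold change of 1.44 with a standard error of 0.28 and a 95% confidence interval from 0.79 to 2.09 (limma adjusted p = 0.0122). A total of 97.7% of tested probe sets had a lower log2 fold change, against 89.5% for ATSMC2.

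The call for CAP-D3 has limits. Both bud signals lay below 23.1, so the gene entered the test through its shoot signals, and the size of the fold is uncertain. With all probe sets tested its adjusted p was 0.0262, and with a pseudocount of 16 its fold was 1.98 (adjusted p = 0.0114). Without shoot array 1 the fold was 2.32 and the call was lost (adjusted p = 0.112), and so it was with all probe sets tested and bud array 1 left out (adjusted p = 0.0708) or the variance trend omitted (0.169), a setting in which no probe set passed.

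The gene of the condensin I subunit CAP-D2 (AT3G57060) was dim on every array. Buds gave signals of 9.73 and 13.7, and shoots 35.3 and 27.2. The lower shoot array was 1.98 times the higher bud array, and in buds the gene stood above only 25.1% and 31.9% of probe sets. Means were 11.7 ± 2.84 in buds and 31.2 ± 5.78 in shoots (SD, n = 2 in each). Its geometric mean over the 4 arrays, 18.9, was under the lowest tested. With all 22746 probe sets in the fit, its log2 fold change was 1.42 with a standard error of 0.38 and a 95% confidence interval from 0.54 to 2.31, which missed the threshold (limma adjusted p = 0.0563). In that fit 96.6% of probe sets had a lower log2 fold change, and 4.45% were called higher. With all probe sets and equal medians its adjusted p was 0.0394, with quantile normalization 0.0432, and without a variance trend 0.171. MAS5 subtracts mismatch signals, so ratios of signals this dim are uncertain, and with a pseudocount of 16 the fold was 1.70.

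**Figure D2:**
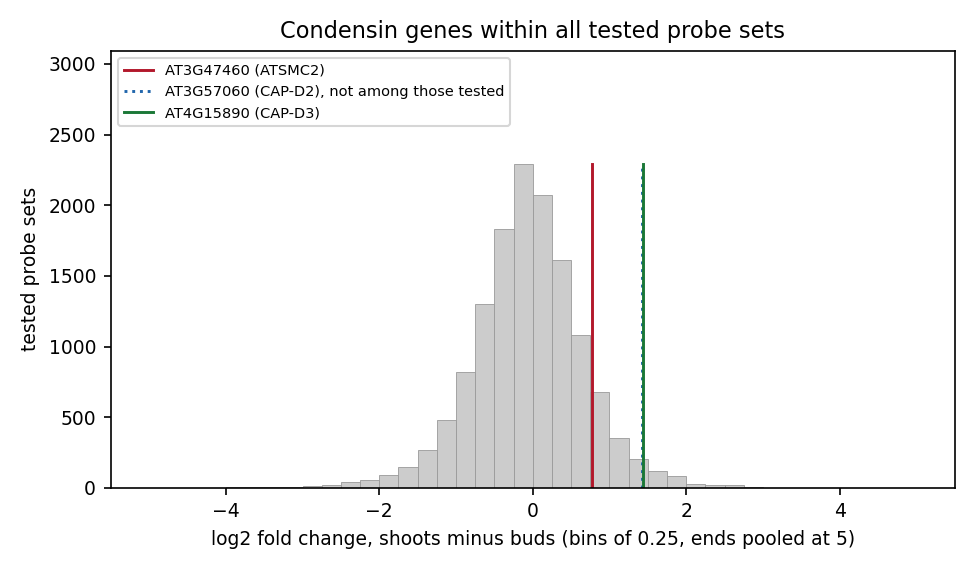
Histogram of the log2 fold change (shoots minus buds, bins of 0.25) of the 13648 tested probe sets, with the condensin genes as vertical lines. The median of the tested probe sets is −0.06, ATSMC2 lies at 0.77, and the lines of CAP-D2 (1.42, dotted, not among those tested) and CAP-D3 (1.44) nearly coincide.

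Differences between the 3 genes were read within each array, where the scaling of the array cancels. The log2 ratio of CAP-D3 to ATSMC2 was −0.83 and −1.02 in buds against −0.20 and −0.31 in shoots. The groups did not overlap, and the ratio was 0.67 higher in shoots. The log2 ratio of CAP-D2 to ATSMC2 was −1.86 and −1.75 in buds and −1.14 and −1.18 in shoots, again without overlap, and 0.65 higher in shoots. These gaps rest on dim CAP-D bud signals and shrank to 0.40 for CAP-D3 and 0.18 for CAP-D2 with a pseudocount of 16, still without overlap. With 2 arrays a side the smallest two-sided p of an exact permutation test is 0.333, so the gaps cannot pass a test. The log2 ratio of CAP-D3 to CAP-D2 was 1.04 and 0.73 in buds and 0.94 and 0.87 in shoots, so the groups overlapped and the means differed by 0.02; with the pseudocount they did not overlap and differed by 0.22. These are ratios of probe set signals and do not give the relative amounts of the transcripts.

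The arrays of a group were ordered alike in all 3 genes. Bud array 2 gave more than bud array 1, by 1.14-fold for CAP-D3, 1.31-fold for ATSMC2 and 1.41-fold for CAP-D2. Shoot array 1 gave more than shoot array 2, by 1.26-fold for ATSMC2, 1.30-fold for CAP-D2 and 1.36-fold for CAP-D3. This order was not particular to the condensin genes. Of the measured segregation and S phase loci described below, all but AT3G54630, AT3G48210 and ICU2 had it too. Without shoot array 1, 230 probe sets in all were called higher, and 0 of the 2 tested condensin genes passed by limma, with 1 at an unadjusted p under 0.05.

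Cohesin and the SMC5/6 complex, which acts in DNA repair, are the other SMC complexes of the nucleus. Of 22 listed loci of their subunits, loaders and regulators, 5 had a named probe set and 4 were tested. By limma 0 rose and 0 fell, where 10.2% of all tested probe sets rose and 12% fell. With 4 loci tested, counts of 0 cannot be told from these shares. At an unadjusted p under 0.05 there was 1 locus, and the median log2 fold change was 0.25. AT1G34770, listed with SMC5/6, came closest, with signals of 48.1 and 30.96 in buds against 72.8 and 60.9 in shoots (log2 fold change 0.79, adjusted p = 0.0853). It passed by limma when array medians were set equal (adjusted p = 0.0367), with quantile normalization (0.0452) and with a replicate block (0.0237). It also passed without bud array 1 (log2 fold change 1.11). The cohesin-linked loci had log2 fold changes of 0.34 for AT1G77600, 0.16 for AT5G47690 and 0.00 for AT5G51340, whose adjusted p values were 0.388, 0.662 and 0.995. AT3G20760 was too dim to be tested, at signals from 0.739 to 1.199. All 5 are given because they are few. Whether the condensin genes differed from these loci was not tested.

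Chromosome segregation genes gave more values, in a list that also held genes of mitotic entry. The measured loci were TOPII, HTR12, AT3G54630, AT3G48210, BUBR1, BUB3.1, AUR1, AUR2 and AUR3, and the rest of the list was not seen. Of 36 listed loci 9 had a named probe set, all were tested, 7 rose and 0 fell, where 10.2% of all tested probe sets rose, and the median log2 fold change was 1.68. With no filter 5 of the 9 rose, where 4.45% of all probe sets did. TOPII, the gene of DNA topoisomerase II, which untangles chromatids and is, with condensin, a main protein of mitotic chromosomes, rose 3.20-fold, from signals of 117 and 126 in buds to 508 and 297 in shoots (adjusted p = 0.00637). TOPII was 1 of 2 genes among the 21 others tested beside the condensins that passed under every alternative run for them. BUBR1, a spindle checkpoint gene, rose 4.33-fold from 9.41 and 20.8 to 79.0 and 46.4 (adjusted p = 0.0139). Both of its bud signals lay below 23.1, so it entered the test through its shoot signals, and with a pseudocount of 16 its fold was 2.52. The same route into the test held for HTR12, another of the 7, with bud signals of 16.2 and 21.5. AT3G54630, also of the 7, had a bud geometric mean of 22.7. With no filter neither HTR12 nor AT3G54630 passed (limma adjusted p = 0.0558 and 0.0574). AUR2, an Aurora kinase gene, rose with a log2 fold change of 2.41 and a standard error of 0.42 (adjusted p = 0.00773). Without shoot array 1 most of the 9 loci did not pass, among them BUBR1 (log2 fold change 1.73) and AUR2 (2.03). Most calls over all probe sets were lost in that fit too. The CAP-D3 log2 fold change of 1.44 lay below the median of these loci and that of ATSMC2 below 7 of the 9.

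In the list of S phase genes, which act in DNA replication, 3 of 23 loci had a named probe set. All 3 rose, where 10.2% of all tested probe sets rose, and their median log2 fold change was 1.67. With no filter all 3 rose too, where 4.45% of all probe sets did. PRL, a subunit gene of the replicative helicase, rose 3.42-fold from 77.8 and 91.4 to 344 and 241 (adjusted p = 0.00385). ICU2, of DNA polymerase alpha, rose 3.19-fold from 33.5 and 25.8 to 111 and 79.7 (adjusted p = 0.00668). POLA3, of the primase, rose with a log2 fold change of 1.11 (adjusted p = 0.0124). Without shoot array 1, ICU2 (log2 fold change 1.44) and POLA3 (0.98) did not pass, and PRL (1.52) did. Most calls over all probe sets were lost there too.

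**Figure D3:**
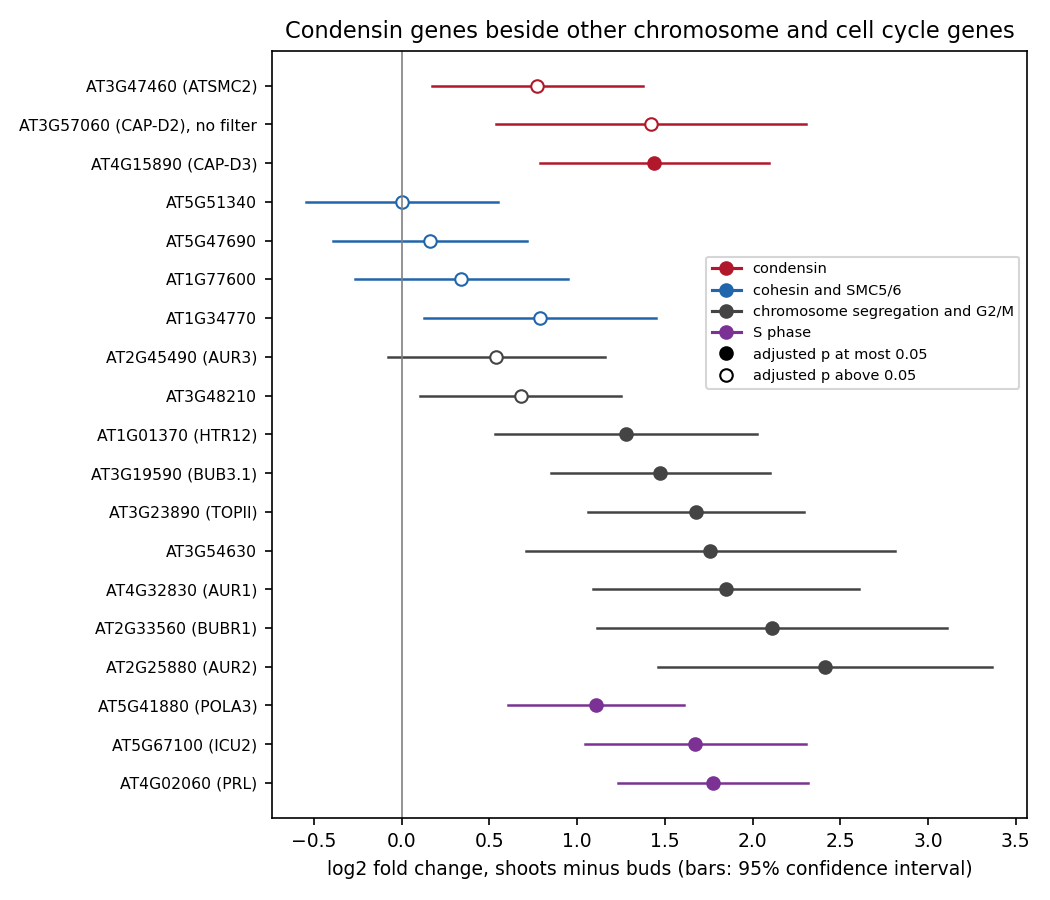
Log2 fold change (shoots minus buds) with 95% confidence intervals for the condensin genes and for the tested loci of 3 lists; filled points have an adjusted p of at most 0.05, and CAP-D2 comes from the fit of all probe sets. CAP-D3 is filled and ATSMC2 and CAP-D2 are open, 7 of 9 segregation and mitosis loci and all 3 S phase loci are filled, and none of the 4 cohesin and SMC5/6 loci is.

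The tested loci whose pattern over the 4 arrays was nearest to the mean of ATSMC2 and CAP-D3 were sought among 7354 named probe sets, by Euclidean distance between centred log2 signals. They were XTH16, which encodes a cell wall xyloglucan enzyme (distance 0.0736), AT5G63120 (0.0809), AT2G40660 (0.0906), AT5G27395 (0.0989) and AT4G15640 (0.108). That all 5 rose in shoots follows from this choice, and their log2 fold changes ran from 1.03 for AT5G63120 to 1.19 for AT5G27395. The pattern sought also has shoot array 1 above shoot array 2. With shoot array 1 left out, the log2 fold changes of the 5 lay between 0.79 and 1.02. The condensin genes lay farther from that mean than these 5, at 0.342 for ATSMC2 and CAP-D3, which is the same for both because the mean is theirs, and 0.349 for CAP-D2. With 4 arrays such a pattern is little more than a fold change and an order of the arrays.

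**Figure D4:**
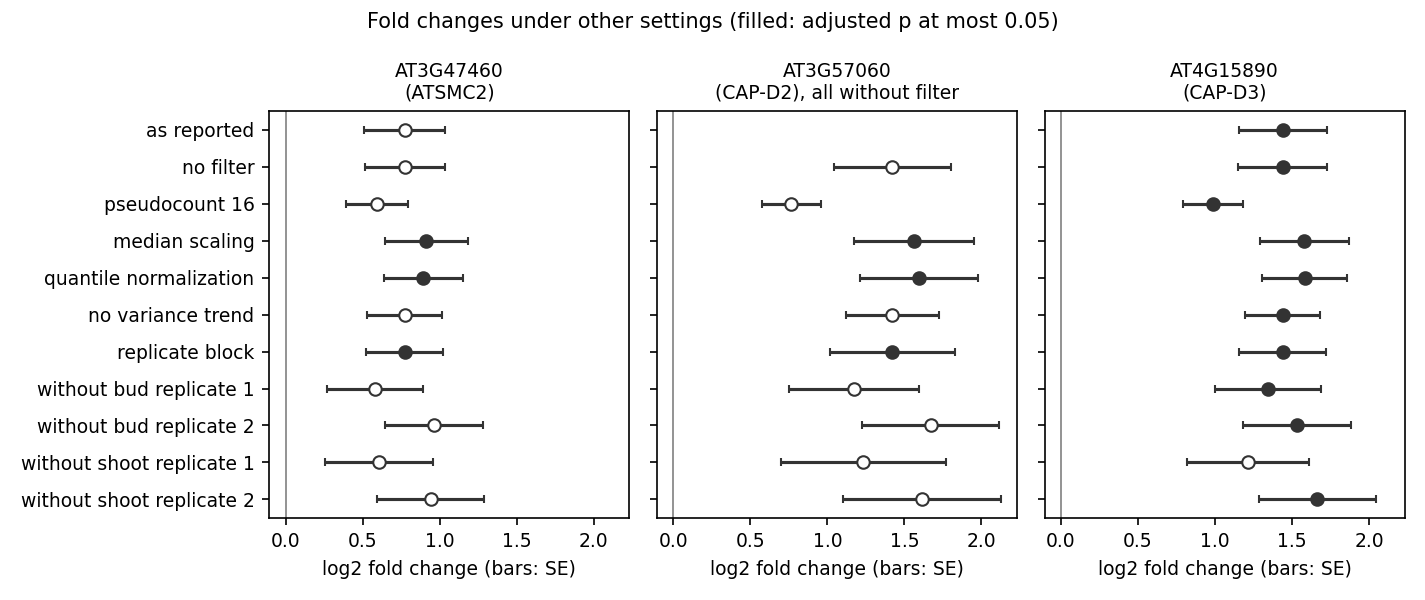
Log2 fold change with its standard error for each condensin gene under the settings named on the vertical axis; filled points have an adjusted p of at most 0.05, and all settings for CAP-D2 are without the filter on dim probe sets. Every value drawn lies above 0, from 0.58 to 0.97 for ATSMC2, from 0.77 to 1.67 for CAP-D2 and from 0.99 to 1.66 for CAP-D3.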

How the data were processed

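The deposited values are probe set intensities from ATH1 GeneChips on a linear scale, which the authors computed with MAS5 in GCOS, as the submitters' processing notes record without versions. Each array had a mean of 100 when 2% of probe sets were trimmed at either end, and so total RNA per cell is lost. Of 22810 probe sets, 64 controls were left out. Log2 intensities of the 60% of probe sets with the highest mean were compared with limma 3.58.1 in R 4.3.3 (intensity trend, all 4 arrays, no pseudocount), with Benjamini-Hochberg adjustment over all of them, and the method was tested on simulated data. Fold changes are ratios of geometric means.

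Genes were named through Entrez identifiers of the platform annotation and the TAIR10.1 gene table: 13436 probe sets had 1 locus, 503 had several genes and 8730 were not listed. Probe sets with several genes held 0 of the 10 loci.

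The loci, lists and tests were chosen with earlier results of these data known, so no direction is independent evidence. All measured condensin genes are named, and in each list the 2 loci with the smallest p-values and the 2 with the largest fold changes; further list loci were named after their values were seen. The 5 nearest patterns exclude the condensin genes. Alternatives were the filter, a pseudocount of 16, 2 scalings, no variance trend, a replicate block and each array left out; combinations with no filter were added after seeing the data.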

Additional observations from a re-analysis of the deposited data

How the results depend on the processing

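The 3 condensin genes kept their direction under every alternative run, filtered or not. Setting array medians equal moved the median over the tested probe sets from −0.06 to 0.08 on the log2 scale. ATSMC2 passed with equal medians (log2 fold change 0.91), quantile normalization (0.89) or a replicate block (0.77, adjusted p = 0.0328), which made 2 condensin genes called in each, where 14.3%, 11.5% and 15.5% of probe sets were called higher; with no filter it did not pass under any of these. CAP-D2, without the filter, passed with equal medians (1.56), quantile normalization (1.60) or the replicate block (1.42, adjusted p = 0.0283). CAP-D3 missed the threshold without shoot array 1 (1.22), whether the filter was kept or not. It also missed it without the filter and variance trend together (1.44), or without the filter and bud array 1 (1.34). With 1 array left out at a time and the filter kept, its log2 fold change lay between 1.22 and 1.66.

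Cohesin and SMC5/6 loci called numbered 1 with equal medians, quantile normalization or the replicate block, and 0 to 1 with an array left out, when the log2 fold changes of AT5G47690 (−0.033 to 0.35) and AT5G51340 (−0.19 to 0.20) changed sign. Leaving out an array gave 1 to 7 segregation loci, 1 to 3 S phase loci, 230 to 1181 probe sets higher and 432 to 1468 lower. Without bud array 1, 944 were lower. Most calls were lost without shoot array 1, over all probe sets and among the 15 other called genes examined alike. These 15 include the 5 nearest patterns, which were chosen to resemble a profile with shoot array 1 above shoot array 2. The cause of these changes was not tested.

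The replicate block raised the calls to 2109 higher and 2548 lower. Deviations of arrays with the same number correlated at 0.23 across genes, from only 2 pairs, so the numbers were not taken as a pairing. Having only 2 arrays a group limits every value, and dim bud signals limit some further, those of CAP-D2 and CAP-D3 among them.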
